A study of Mus musculus with 12 samples.

Results

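The mitochondrially coded genes are those whose names begin with mt- in the deposited tables. In all, 33 of the 18604 genes measured met that rule: 13 protein-coding genes and 20 tRNA genes. The mouse annotation lists 37 genes on the mitochondrial genome. The rRNA genes mt-Rnr1 and mt-Rnr2 and the tRNA genes mt-Td (aspartate) and mt-Tk (lysine) were not analysed here, so no rRNA value is given.

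RNA came from whole hearts of male C57Bl/6J mice aged 12 weeks and was selected for poly(A) tails. Mice ate either a diet without branched-chain amino acids (leucine, isoleucine and valine; BCAA-free) or a control diet that held them at about the level of standard chow, starting 4 days before surgery. Surgery was transverse aortic constriction (TAC), a narrowing of the aorta that loads the left ventricle, or a sham operation, and hearts were collected after 1 week. The 4 groups were BCAA-free TAC, control diet TAC, BCAA-free sham and control diet sham, with 3 libraries each. Whether each library came from its own mouse is not stated in the labels, so the spread behind the p-values may be technical.

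The mitochondrial genome is transcribed from both strands into long RNAs that carry mRNAs, rRNAs and tRNAs end to end. RNase P and the endonuclease ELAC2 cut the tRNAs out, and this frees the mRNAs and rRNAs between them. All the proteins encoded there are core subunits of respiratory complexes I, III and IV or of the ATP synthase (complex V), and heart muscle, which lives on oxidative phosphorylation, is among the tissues richest in them. Mitochondrial ribosomes make these proteins with the tRNAs of the same genome, which nuclear-coded synthetases charge. Mature tRNAs have no poly(A) tail. Reads on a tRNA gene in poly(A)-selected RNA can come from mature tRNA or from longer RNAs that still hold it, and these sources cannot be told apart here.

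The branched-chain amino acids that the diet left out are read in mitochondria by 4 tRNAs: mt-Tl1 and mt-Tl2 for leucine, mt-Ti for isoleucine and mt-Tv for valine. Their codons made up 1129 of the 3790 sense codons of the 13 protein-coding genes, or 29.8%. The share ran from 25.4% in mt-Atp8 to 34.9% in mt-Nd6. Sequences are shown for these 4 tRNAs and for mt-Tf (phenylalanine), mt-Tq (glutamine) and mt-Ty (tyrosine), which were among the members with the smallest p-values in the comparisons. They are the gene sequences of the GENCODE M21 annotation (GRCm38), 5′ to 3′ on the strand of the tRNA, with the anticodon in capitals:
mt-Tf: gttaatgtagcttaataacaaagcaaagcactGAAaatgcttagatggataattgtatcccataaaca
mt-Tv: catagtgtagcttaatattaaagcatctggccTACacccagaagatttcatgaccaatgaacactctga
mt-Tl1: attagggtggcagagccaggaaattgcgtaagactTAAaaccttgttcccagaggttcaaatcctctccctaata
mt-Tl2: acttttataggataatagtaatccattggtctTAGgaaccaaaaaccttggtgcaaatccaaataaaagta
mt-Ti: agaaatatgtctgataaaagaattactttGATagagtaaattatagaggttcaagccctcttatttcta
mt-Tq: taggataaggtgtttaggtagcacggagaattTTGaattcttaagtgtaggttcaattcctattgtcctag
mt-Ty: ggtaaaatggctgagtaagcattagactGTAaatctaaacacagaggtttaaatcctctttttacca
The mt-Tf gene lies at chrM:1-68 and mt-Tv at chrM:1025-1093, on either side of the small rRNA gene, mt-Rnr1. The mt-Tl1 gene lies at chrM:2676-2750, next to mt-Nd1, and mt-Tl2 at chrM:11671-11741, next to mt-Nd5. The mt-Ti gene, at chrM:3706-3774, overlaps mt-Tq, which lies on the opposite strand at chrM:3772-3842. The mt-Ty gene lies at chrM:5260-5326, beside mt-Co1. Each of mt-Tq and mt-Ty is on the light strand, and the other 5 are on the heavy strand. How the authors' counting used strand is not given, so RNA of a gene and RNA transcribed from its opposite strand cannot be told apart.

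All reads of a library here means its reads summed over the 18604 genes measured, which came to 74206246 to 110452636. Reads on other genes and reads not assigned to a gene are not in this total, on which the shares below rest. Counts of called genes that moved by over 1.5 times when a single library was left out are also given without it. Leaving out a library also moves the calls over all genes, and that share is given only for control diet TAC 3. Counts at an unadjusted p below 0.05 are given without the share of all genes. The structured RNAs Rn7sk, Rmrp and Rpph1, which lack a poly(A) tail, summed to 19.3 to 115.5 RPM (reads per 1000000 reads of the library) in BCAA-free TAC 1 and 3, control diet TAC 3 and control diet sham 2, against 2.06 to 7.79 in the other libraries. The summed level of 10 cardiomyocyte markers was 78283 to 81572 RPM in BCAA-free TAC libraries, 58594.5 to 66843 in control diet TAC libraries, 74934 to 79689 in BCAA-free sham libraries and 68585 to 72830 in control diet sham libraries. The summed level of 6 fibroblast markers was 675 to 775 in BCAA-free TAC libraries, 1405 to 2238 in control diet TAC libraries, 565 to 619 in BCAA-free sham libraries and 617 to 720 in control diet sham libraries. Control diet TAC hearts thus had the lowest cardiomyocyte and the highest fibroblast marker sums. The sum of 6 atrial markers was 846 to 1268 in BCAA-free TAC libraries and 1632.5 to 3018 in control diet TAC libraries, above 258 to 408 in BCAA-free sham libraries and 211 to 703 in control diet sham libraries. The sum of 5 macrophage markers was 74.7 to 102 in BCAA-free TAC libraries, 148 to 189 in control diet TAC libraries, 64.7 to 77.5 in BCAA-free sham libraries and 75.0 to 96.7 in control diet sham libraries. Of 3 brown fat markers 2 were measured, and their sum was 25.5 to 30.3 in BCAA-free TAC, 32.6 to 39.0 in control diet TAC, 21.2 to 23.1 in BCAA-free sham and 22.4 to 24.1 in control diet sham libraries. With TAC both rose on the control diet and 1 rose on the BCAA-free diet by limma. Sums of 5 endothelial and 3 red blood cell markers overlapped between TAC and sham libraries on each diet. The part of these marker sums in the results below was not tested, and in bulk RNA fewer cells of a type and less RNA per cell cannot be told apart.

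Normalized reads per kilobase, averaged over the 12 libraries, were highest for mt-Co1, the catalytic subunit of complex IV, at 5170140 reads. The complex III subunit mt-Cytb had 2953430 per kilobase. Of the complex I genes, mt-Nd1 had 2898850, mt-Nd2 1772810, mt-Nd6 1217760, mt-Nd5 1028430 and mt-Nd4 873243. The other 6 protein-coding genes were far lower, between 3558 (mt-Co2) and 37842 (mt-Nd3) per kilobase. All 6 lie inside chrM:6390-11042, a stretch of 4653 bases called the copied stretch below. Pieces of it matched 7 pseudogenes annotated at chr1:24611535-24616197, and the aligned pieces were 99.7 to 100% identical between the genomes. Only annotated transcripts were compared, so bases between the pieces were not. The genes mt-Ts1, mt-Tg and mt-Tr had no match of their own, and mt-Atp8 matched there over 43 bases. That a copy spans the whole stretch is inferred from the pieces. The lowest protein-coding gene wholly outside this stretch, mt-Nd5, stood 27.2-fold above the highest inside it, mt-Nd3. The level of mt-Co2 per kilobase was 1453-fold below that of its neighbour mt-Co1, and both code for core subunits of the same enzyme. How the authors' counting treated reads that match both places is not given. Values of the members inside, which are mt-Co2, mt-Atp8, mt-Atp6, mt-Co3, mt-Nd3, mt-Nd4l and the tRNAs mt-Ts1, mt-Tg and mt-Tr, are therefore uncertain, both as levels and as changes between groups. The genes mt-Co1 and mt-Nd4 lie there in part, and their values may be too low.

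**Figure D1:**
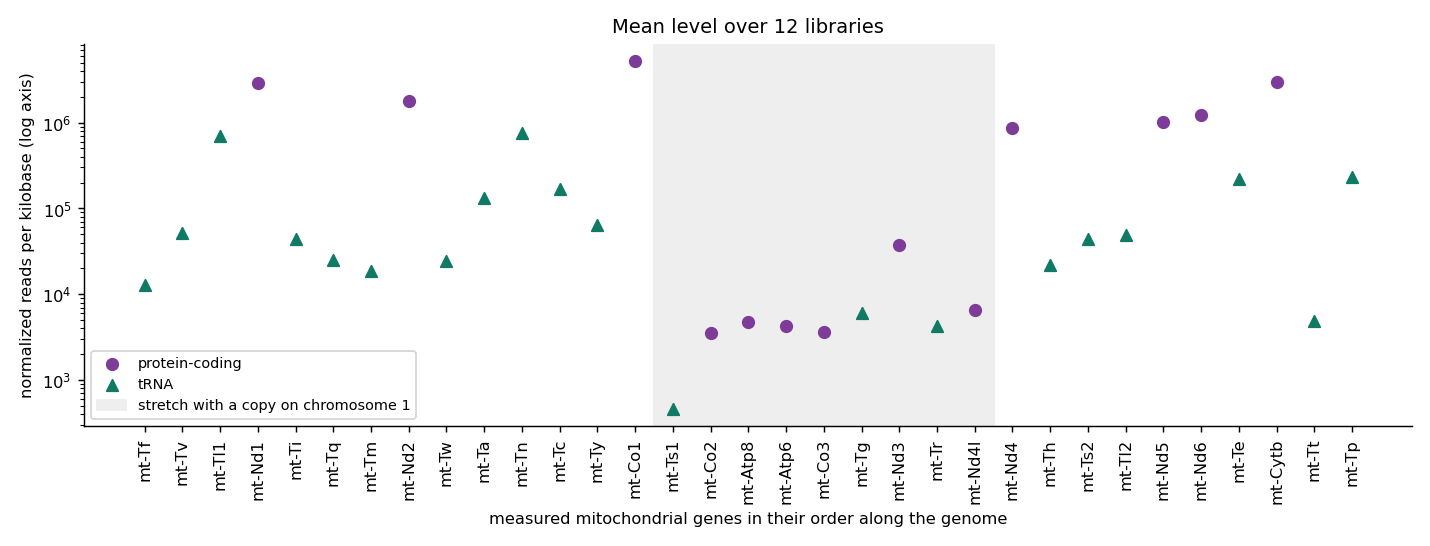
Mean normalized reads per kilobase over 12 libraries, on a log axis, for the 33 measured genes in their order along the mitochondrial genome. Circles are protein-coding genes, triangles tRNA genes, and the grey band is the stretch with near-identical pieces on chromosome 1. The 6 protein-coding genes in the band lie between 3558 and 37842, and the other 7 at 873243 or more.

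The tRNA genes ran from 463 reads per kilobase (mt-Ts1, serine, inside the copied stretch) to 752452 (mt-Tn, asparagine). The second highest was mt-Tl1, at 705524. These values are rough as levels, since fragments in RNA sequencing are usually longer than a tRNA and reach into its neighbours. Counted per gene, mt-Tn had 64489, 80487 and 55569.5 normalized reads in BCAA-free TAC libraries, 42698, 22444 and 34246 in control diet TAC libraries, 52237, 46865 and 64712 in BCAA-free sham libraries and 84383, 44842 and 48118 in control diet sham libraries. All 3 control diet TAC values were below those of every other group. The lowest, mt-Ts1, averaged 31.97 normalized reads over all libraries.

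Protein-coding genes of the mitochondrial genome took 21.9, 22.3 and 21.7% of all reads in BCAA-free TAC libraries, 19.7, 17.7 and 18.0% in control diet TAC libraries, 22.4, 23.0 and 23.3% in BCAA-free sham libraries and 26.8, 22.2 and 23.2% in control diet sham libraries. The 3 control diet TAC libraries were the lowest of the 12. The 6 genes inside the copied stretch made up 0.0961 to 0.169% of these protein-coding reads. The share is thus almost wholly that of the other 7 genes, and it may be too low as a share of mitochondrial mRNA. The 95% Wilson interval of a library's share was at most 0.00962 percentage points to either side, which covers counting error only. The mean share was 18.5 ± 1.07% in control diet TAC libraries and 24.1 ± 2.43% in control diet sham hearts (SD, n = 3 each), a difference of -5.58 points. On the BCAA-free diet it was 21.9 ± 0.309% in TAC and 22.9 ± 0.459% in sham hearts, a difference of -0.98 points. Each of these pairs had p = 0.1 in a two-sided exact permutation test, the smallest that 3 against 3 allow, and 0.3 after Benjamini-Hochberg adjustment over 18 tests. TAC against sham within diet, over all 12 libraries, gave -3.28 points with an exact permutation p of 0.005, the smallest possible, and 0.09 after adjustment. The diet comparison in TAC hearts, 21.9% on BCAA-free against 18.5% on control diet, gave 3.45 points with an exact permutation p of 0.1 and 0.3 after adjustment.

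The tRNA genes together took 2123, 2152 and 1768 RPM in BCAA-free TAC libraries, 1857, 1279.8 and 1825 in control diet TAC libraries, 2062, 2039.7 and 2230.0 in BCAA-free sham libraries and 2699.8, 1959.9 and 2210.4 in control diet sham libraries. The Wilson interval reached at most 10.7 RPM to either side. Control diet TAC averaged 1654 ± 325 and control diet sham 2290.0 ± 376 RPM (SD, n = 3 each), with no overlap and an exact permutation p of 0.1. BCAA-free TAC averaged 2014 ± 214 and BCAA-free sham 2111 ± 104, and these groups overlapped. Relative to mRNA, tRNA reads stood at 9.18 ± 0.883 per 1000 mitochondrial protein-coding reads in BCAA-free TAC libraries, 8.92 ± 1.52 in control diet TAC libraries, 9.21 ± 0.343 in BCAA-free sham libraries and 9.48 ± 0.619 in control diet sham hearts. No comparison of this ratio had an exact permutation p below 0.62, which does not show that the groups were alike. Its mRNA reads are almost wholly those of the 7 genes not inside the copied stretch, so the ratio may be too high.

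**Figure D2:**
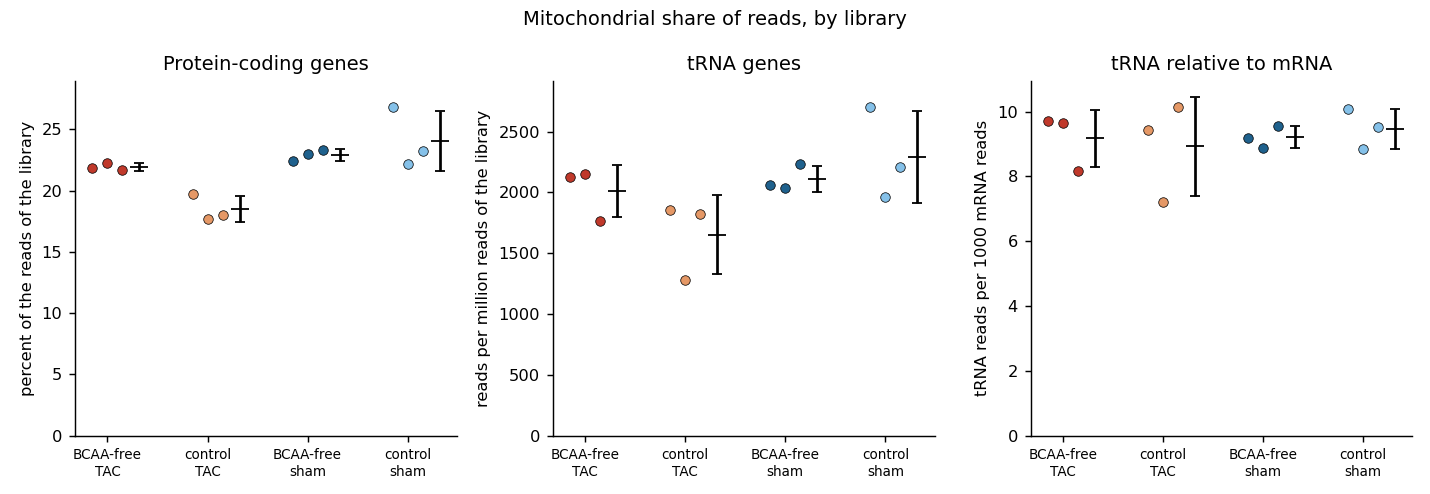
Share of reads by library in BCAA-free TAC, control diet TAC, BCAA-free sham and control diet sham hearts: protein-coding genes in percent of all reads (left), tRNA genes in RPM (middle), and tRNA reads per 1000 mitochondrial protein-coding reads (right); points are libraries and bars are mean ± SD (n = 3). The control diet TAC libraries are lowest in the left panel, at 17.7 to 19.7%, and all groups overlap in the right panel. Nearly all protein-coding reads are those of the 7 genes not inside the copied stretch.

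The first gene-level comparison asks how pressure overload for 1 week changed mitochondrial RNA on the control diet. In control diet TAC against control diet sham hearts, 12 of 33 mitochondrial genes fell and 0 rose, by limma at an adjusted p below 0.05 over 18305 genes. Of all genes tested, 5.64% fell and 9.17% rose. None of the members rose at an unadjusted p below 0.05. With edgeR 10 members fell and 0 rose, against 6.04% and 8.86% of all genes, and with DESeq2 19 fell and 0 rose, against 8.07% and 11.7%. The log2 change was below 0 for 29 of the 33, with a median of -0.55 against -0.02 over all genes tested. All 13 protein-coding genes had a log2 change below 0, and 6 of them passed the test. Of the 20 tRNA genes 6 passed. The libraries did not overlap, with TAC lower, for 17 members, against 16.3% of all genes. Without control diet TAC 3 the count was 19, all lower, against 12.1% of all genes. It was 7 without control diet TAC 1 or control diet sham 2, and 5 without control diet sham 1. For these smaller counts the share of all genes was not computed. The genes mt-Tf, mt-Tv, mt-Atp8 and mt-Atp6 were called whichever library was left out.

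Of the 7 complex I genes on the control diet, 2 fell with TAC: mt-Nd5 by 0.76 ± 0.15 and mt-Nd2 by 0.75 ± 0.16 on the log2 scale (± SE), with limma adjusted p-values of 0.013 and 0.0137. The other 5 ranged from -0.61 (mt-Nd4l) to -0.19 (mt-Nd3) and did not pass. Nd5 and Nd2 code for subunits of the proton-pumping membrane arm. The light-strand gene mt-Nd6, another subunit of that arm, had 546035, 438309 and 683221 normalized reads in control diet TAC libraries and 756827, 638803 and 591608 in control diet sham libraries. These overlapped, since control diet TAC 3 stood above sham 2 and 3, and the log2 change was -0.28 ± 0.19 (limma adjusted p = 0.359). The complex III gene mt-Cytb had a log2 change of -0.51 ± 0.15 and did not pass, at a limma adjusted p of 0.0553, although its libraries did not overlap.

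Of the 3 complex IV genes, mt-Co1 and mt-Co2 fell and mt-Co3 did not pass (-0.53 ± 0.18, limma adjusted p = 0.078). The catalytic subunit mt-Co1 had 6407170, 5690760 and 6095020 normalized reads in control diet TAC libraries and 9912080, 8112680 and 8439990 in control diet sham libraries. Every TAC library was lower, and the log2 change was -0.55 ± 0.15 (limma adjusted p = 0.0408). It was called with control diet TAC 3 left out, and it missed the threshold without each of the other 5 libraries of the pair. The gene mt-Co2, lowest of the protein-coding genes per kilobase, had 1884, 1388 and 2232 normalized reads in control diet TAC libraries and 3203, 2575 and 2548 in control diet sham libraries. Its log2 change was -0.62 ± 0.18, with a limma adjusted p of 0.0444.

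Both ATP synthase genes fell with TAC on the control diet. They code for subunits of the membrane part of the enzyme, and their reading frames overlap by 43 bases, so that reads there can be shared. The normalized reads of mt-Atp6 were 1895, 1659.6 and 1864 in control diet TAC libraries and 3075, 3705 and 3573 in control diet sham libraries. The log2 change was -0.94 ± 0.11 (limma adjusted p = 0.00114), and the groups lay far apart. Those of mt-Atp8 were 627, 575 and 383 in control diet TAC libraries and 1144, 1202 and 1344 in control diet sham libraries. They did not overlap either, with a log2 change of -1.25 ± 0.18 (limma adjusted p = 0.00309). These genes lie in the copied stretch, with levels per kilobase of 4324 and 4800.2 reads.

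The largest changes were in 2 tRNA genes near the start of the heavy-strand transcript. The phenylalanine tRNA gene mt-Tf had 482, 328 and 368 normalized reads in control diet TAC, against 1393, 1369.9 and 997 in control diet sham libraries. Each TAC library was below each sham library, and mt-Tf fell by 1.68 ± 0.18 on the log2 scale (limma adjusted p = 0.000843). The valine tRNA gene mt-Tv had 2289, 1338 and 1909 normalized reads in control diet TAC, against 6012, 4954 and 5226 in control diet sham libraries. There was again no overlap, and mt-Tv fell by 1.59 ± 0.18 (limma adjusted p = 0.00114). The glutamine tRNA gene mt-Tq, on the light strand, had 861, 990.1 and 1088 normalized reads in control diet TAC libraries and 2496, 2433 and 1391 in control diet sham libraries. It fell by 1.07 ± 0.21 (limma adjusted p = 0.0115), and the lowest sham library was above every TAC library. The other tRNA genes that fell were mt-Ti (isoleucine, -1.08 ± 0.28), mt-Te (glutamate, -0.70 ± 0.17) and mt-Ty (tyrosine, -0.68 ± 0.19). The 14 tRNA genes that did not pass ranged in log2 change from -1.28 (mt-Ts1) to 0.44 (mt-Tg, glycine). Split by strand, the median log2 change was -0.69 for the 8 light-strand and -0.30 for the 12 heavy-strand tRNA genes.

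On the BCAA-free diet, the same question gave 2 lower and 0 higher mitochondrial genes in TAC against sham hearts, both tRNA genes, among 17611 genes tested with limma. Of all genes, 4.41% were lower and 3.31% higher. At an unadjusted limma p below 0.05, 11 members were lower, 9 of them tRNA genes, and 1, mt-Tp, was higher. The log2 change was below 0 for 21 of 33 members, with a median of -0.12, against 0.01 over all genes. None of the 13 protein-coding genes passed, and 2 of them (mt-Nd2 and mt-Nd5, both at -0.18) had an unadjusted limma p below 0.05. Their log2 changes ran from -0.19 (mt-Atp6) to 0.26 (mt-Nd3). With edgeR 3 members fell and 1 rose, all tRNA genes, against 3.97% and 3.37% of all genes. With DESeq2 7 fell, 1 of them protein-coding, and 1 tRNA gene rose, against 5.78% and 4.93%. The count was 6, all lower, when libraries were scaled to reads outside the mitochondrial genome, and 5 without BCAA-free TAC 1. The share of all genes was not computed for either count. With all 12 libraries in 1 limma fit, none was called, and 4 were lower and 1 higher at an unadjusted p below 0.05.

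The tyrosine tRNA gene mt-Ty had 3702, 3538 and 3539 normalized reads in BCAA-free TAC libraries and 6416, 5098 and 5009 in BCAA-free sham libraries. The groups did not overlap, and mt-Ty fell by 0.61 ± 0.08 on the log2 scale (limma adjusted p = 0.00193). The valine tRNA gene mt-Tv had 3329, 2866 and 2753 normalized reads in BCAA-free TAC, against 4178, 3712 and 4021 in BCAA-free sham libraries. It was lower in all 3 TAC libraries and fell by 0.42 ± 0.08 (limma adjusted p = 0.00629). Each of these calls held when any library was left out. Values of mt-Tf, by contrast, overlapped: 805, 939 and 1020.1 normalized reads in BCAA-free TAC libraries and 859, 787 and 999 in BCAA-free sham libraries. Its log2 change was 0.06 ± 0.11 (limma adjusted p = 0.809). The proline tRNA gene mt-Tp had the highest log2 change, 0.60 ± 0.17, without passing (limma adjusted p = 0.0938). BCAA-free TAC libraries also held more structured RNA (7.79 to 76.1 RPM) than BCAA-free sham libraries (3.02 to 3.89). Without the libraries high in it, BCAA-free TAC 2 was the only TAC library left, and the median log2 change over the members was -0.18.

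**Figure D3:**
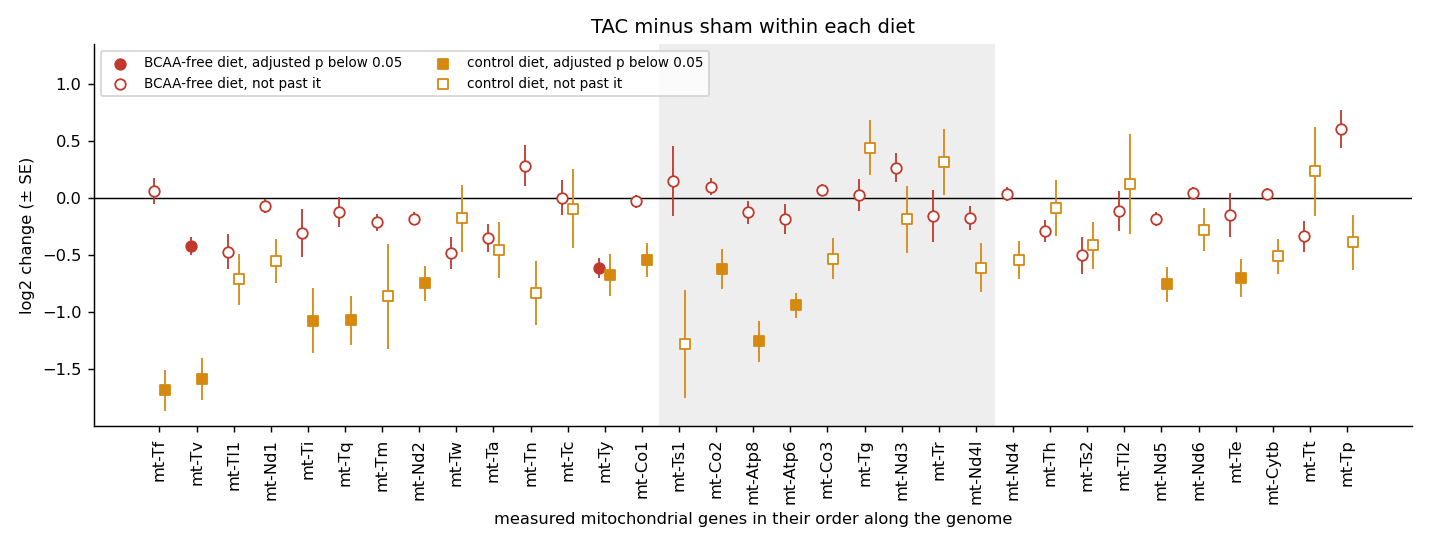
Log2 change ± SE of each measured gene, TAC minus sham, on the BCAA-free diet (circles) and on the control diet (squares), in order along the mitochondrial genome; filled symbols passed a limma adjusted p below 0.05 and the grey band is the copied stretch. On the control diet 12 filled squares lie below 0, down to -1.68 for mt-Tf, and on the BCAA-free diet 2 filled circles do, mt-Tv and mt-Ty.

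Whether the responses differed between the diets was tested in 1 model of the 12 libraries, as the log2 change with TAC on the BCAA-free diet minus that on the control diet. The difference was above 0 for 26 of 33 members, and 3 passed, all above 0, among 17493 genes tested with limma. Of all genes tested, 0.171% passed in that direction and 0.503% in the other. No member had a difference below 0 at an unadjusted p below 0.05. With edgeR 3 members passed above 0 and 0 below, against 0.177% and 0.635% of all genes, and with DESeq2 12 and 0, against 1.58% and 3.04%. The median difference was 0.55 over the members and 0.02 over all genes. The difference was 1.74 ± 0.23 for mt-Tf (limma adjusted p = 0.00919), 1.17 ± 0.22 for mt-Tv (0.0308) and 1.13 ± 0.22 for mt-Atp8 (0.0367). The mt-Tf call held when any of the 12 libraries was left out, and it was the only one of the 3 that did. Next in order was mt-Atp6, at 0.75 ± 0.17, which did not pass (limma adjusted p = 0.0623). All 13 protein-coding genes had a difference above 0, between 0.32 (mt-Nd6) and 1.13 (mt-Atp8), and 10 of them had an unadjusted limma p below 0.05. The largest differences below 0 were in tRNA genes that did not pass, down to -0.57 (mt-Tt, threonine). Without control diet TAC 3, 14 members passed, and 5.09% of all genes then passed in that direction. Leaving out any single library among control diet sham 1 or 2, BCAA-free sham 1, 2 or 3, or BCAA-free TAC 2 or 3 brought the count to 1.

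**Figure D4:**
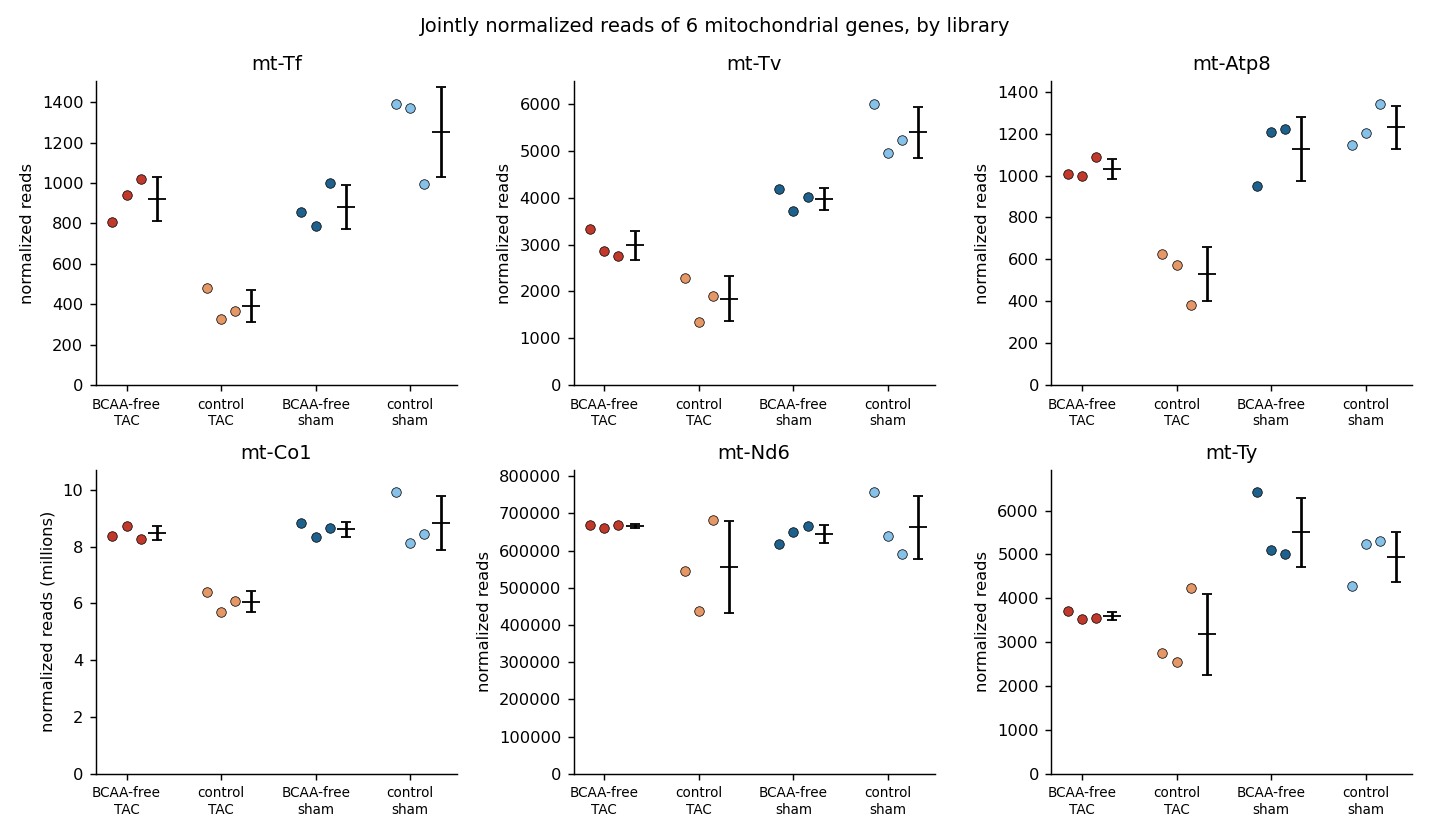
Jointly normalized reads of mt-Tf, mt-Tv, mt-Atp8, mt-Co1 (axis in units of 1000000 reads), mt-Nd6 and mt-Ty by library in BCAA-free TAC, control diet TAC, BCAA-free sham and control diet sham hearts; points are libraries and bars are mean ± SD (n = 3). The control diet TAC libraries lie below all others for mt-Tf (328 to 482), mt-Tv (1338 to 2289), mt-Atp8 (383 to 627) and mt-Co1 (5690760 to 6407170), and they overlap the others for mt-Nd6.

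Diet was compared in TAC hearts next. This comparison shares the control diet TAC libraries with the first one, so that the 2 are not independent. In BCAA-free TAC against control diet TAC hearts, 16 of 33 mitochondrial genes were higher and 0 lower, by limma over 18039 genes. Of all genes tested, 6.23% were higher and 10.5% lower. None of the members was lower at an unadjusted p below 0.05. With edgeR 13 members were higher and 0 lower, against 6.5% and 10.3% of all genes, and with DESeq2 17 and 0, against 8.21% and 12.7%. The median log2 change was 0.49 over the members, against 0.02 over all genes, and 28 of 33 were above 0. The libraries did not overlap, with BCAA-free higher, for 20 members, against 17% of all genes. Scaled to reads outside the mitochondrial genome, which moved the median of all genes to -0.15, 7 members were called higher. The count was 10 without control diet TAC 1, 6 without BCAA-free TAC 1, and 7 without BCAA-free TAC 2 or 3. The share of all genes was not computed for these counts or under the scaling above. Without the libraries high in structured RNA, BCAA-free TAC 2 was the only library left of its group. The median log2 change over the members was then 0.54. The genes mt-Tf, mt-Ti, mt-Tq, mt-Te, mt-Atp8 and mt-Atp6 were called whichever library was left out. All 3 BCAA-free TAC libraries had higher cardiomyocyte marker sums than all 3 control diet TAC libraries, and 6 of 10 of these markers were called higher.

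Among complex I genes, mt-Nd5 (0.60 ± 0.15), mt-Nd4 (0.51 ± 0.14) and mt-Nd2 (0.49 ± 0.13) were higher in BCAA-free TAC than in control diet TAC hearts, as log2 changes. The complex III gene mt-Cytb was higher by 0.50 ± 0.13, with 3645500, 3675020 and 3646030 normalized reads in BCAA-free TAC libraries and 2746000, 2395400 and 2649100 in control diet TAC libraries. In complex IV, mt-Co1 was higher by 0.49 ± 0.14 (limma adjusted p = 0.0396), with 8383460, 8739190 and 8265920 normalized reads in BCAA-free TAC libraries, all above the control diet TAC libraries given above. The gene mt-Co2 was higher by 0.56 ± 0.16, with 2489, 2717 and 2749 normalized reads in BCAA-free TAC, and mt-Co3 (0.41 ± 0.17) did not pass. Of these genes, mt-Co1, mt-Co2, mt-Cytb and mt-Nd2 missed the threshold when any library other than control diet TAC 3 was left out. The light-strand mt-Nd6 had 668866, 659657 and 668461 normalized reads in BCAA-free TAC, which overlapped control diet TAC, and its log2 change of 0.29 ± 0.17 did not pass.

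Both ATP synthase genes were higher in BCAA-free TAC hearts. The gene mt-Atp6 had 3084, 2696 and 3366 normalized reads there, against 1895, 1659.6 and 1864 in control diet TAC libraries, a log2 change of 0.76 ± 0.11 (limma adjusted p = 0.00229). The gene mt-Atp8 had 1009, 998 and 1088 normalized reads in BCAA-free TAC, against 627, 575 and 383 in control diet TAC libraries, a change of 1.00 ± 0.17 (limma adjusted p = 0.00503). Neither pair of groups overlapped.

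Of the 20 tRNA genes, 8 were higher in BCAA-free TAC than in control diet TAC hearts. The glutamine tRNA gene mt-Tq had 1697, 2245 and 1977 normalized reads in BCAA-free TAC, against 861, 990.1 and 1088 in control diet TAC libraries, a log2 change of 1.01 ± 0.13 (limma adjusted p = 0.00144). The phenylalanine gene mt-Tf was higher by 1.25 ± 0.16 (limma adjusted p = 0.00146), with no overlap between the values given above. The isoleucine gene mt-Ti had 3220.4, 3422 and 3011 normalized reads in BCAA-free TAC, against 1129, 1635 and 1775 in control diet TAC libraries, a change of 1.12 ± 0.16 (limma adjusted p = 0.00201). In each of these genes, every BCAA-free TAC library lay above every control diet TAC library. The other tRNA genes called higher were mt-Tn (1.05 ± 0.23), mt-Tp (0.77 ± 0.20), mt-Te (0.76 ± 0.15), mt-Tv (0.73 ± 0.18) and mt-Ts2 (serine, 0.69 ± 0.18). The 12 not called ranged from -0.37 (mt-Tg) to 1.31 (mt-Ts1).

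In sham hearts, limma called 1 of 33 mitochondrial genes lower on the BCAA-free diet and 0 higher, near the share of all genes. The valine tRNA gene mt-Tv was lower in BCAA-free sham (4178, 3712 and 4021 normalized reads) than in control diet sham libraries (6012, 4954 and 5226), with a log2 change of -0.44 ± 0.08 (limma adjusted p = 0.0163). Of the 17862 genes tested, 2.27% were lower and 1.27% higher. At an unadjusted p below 0.05, 1 member was higher and 3 were lower. With edgeR 1 member was lower and 0 higher, against 2.05% and 0.96% of all genes, and with DESeq2 2 were lower and 1 higher, against 5.35% and 3.2%. This call was lost when control diet sham 3 or any of the 3 BCAA-free sham libraries was left out, with adjusted p-values of at most 0.076. Leaving out control diet sham 1 gave 2 lower members. Without control diet sham 2, which is high in structured RNA, 2 were lower and 1 higher. The share of all genes was not computed for these counts. With all 12 libraries in 1 limma fit 0 were called, and 2 were lower and 1 higher at an unadjusted p below 0.05. The median log2 change over the members was -0.03, against 0.00 over all genes. The 13 protein-coding genes ranged from -0.26 (mt-Nd3) to 0.02 (mt-Nd5), with none called by limma, edgeR or DESeq2, and mt-Co3 (-0.19) was the one with an unadjusted limma p below 0.05. The tRNA genes ranged from -0.50 (mt-Tf) to 0.77 (mt-Ts2).

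**Figure D5:**
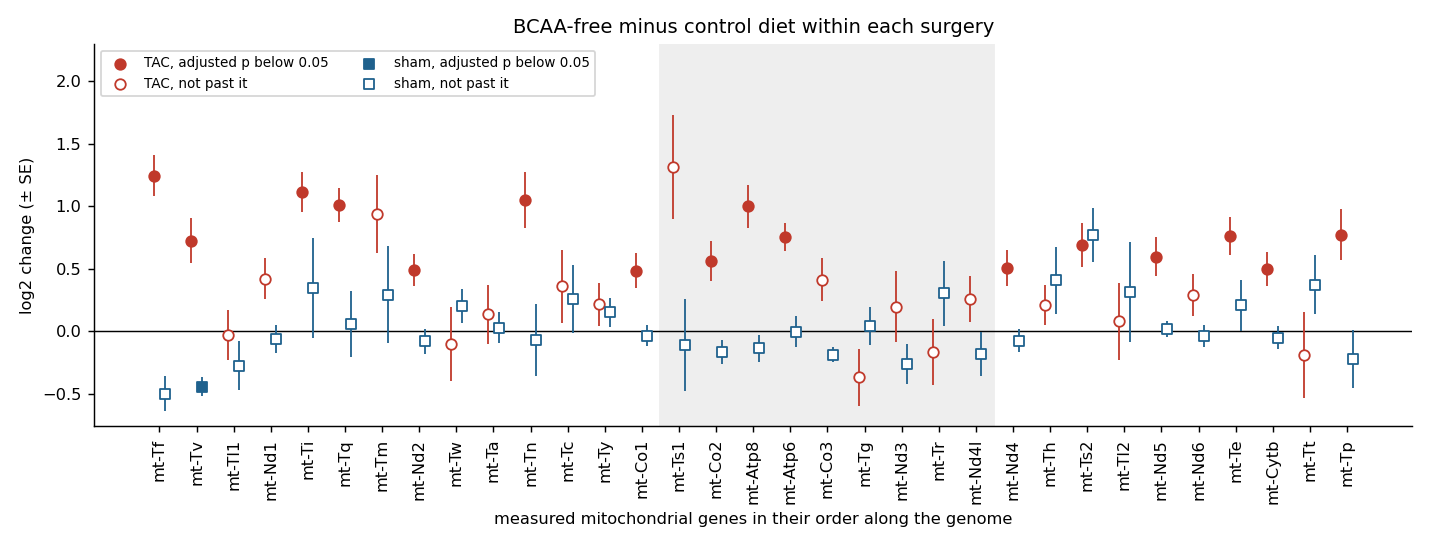
Log2 change ± SE of each measured gene, BCAA-free minus control diet, in TAC hearts (circles) and in sham hearts (squares), in order along the mitochondrial genome; filled symbols passed a limma adjusted p below 0.05 and the grey band is the copied stretch. In TAC hearts 16 filled circles lie above 0, and in sham hearts 1 filled square lies below it, mt-Tv at -0.44.

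The 4 tRNA genes for the amino acids absent from the BCAA-free diet did not share a pattern of calls. Valine mt-Tv was lower with TAC on each diet and lower on the BCAA-free diet in sham hearts, as given above, yet higher on that diet in TAC hearts. Neither of its calls for diet held whichever library was left out. Isoleucine mt-Ti had 3173, 3647 and 5402 normalized reads in BCAA-free sham libraries and 3406, 4509 and 1962 in control diet sham libraries, and its log2 change of 0.35 ± 0.40 did not pass (limma adjusted p = 0.701). The leucine gene mt-Tl1, with the anticodon TAA, had 50708, 41686 and 32971 normalized reads in BCAA-free TAC libraries, 45709.5, 32196 and 50585 in control diet TAC libraries, 57139, 59719 and 53621 in BCAA-free sham libraries and 87126, 50976 and 72536 in control diet sham libraries. It was not called in any comparison by limma or edgeR, while DESeq2 called it lower with TAC on both diets, with adjusted p-values of 0.00143 on the BCAA-free and 0.00832 on the control diet. Its limma log2 changes with TAC were -0.47 ± 0.15 on the BCAA-free diet (limma adjusted p = 0.123) and -0.71 ± 0.23 on the control diet (0.0666). The other leucine gene, mt-Tl2 with the anticodon TAG, had 4048, 2741 and 3692 normalized reads in BCAA-free TAC libraries, 2649, 2327 and 5690.2 in control diet TAC libraries, 4158, 3151 and 3948 in BCAA-free sham libraries and 1766, 4543 and 3312 in control diet sham libraries. All groups overlapped, and mt-Tl2 was not called in any comparison of 2 groups by limma, edgeR or DESeq2, with limma log2 changes between -0.12 and 0.32.

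Reads of the 8 light-strand tRNA genes made up 64.6, 71.0 and 69.3% of all tRNA reads in BCAA-free TAC libraries, 61.0, 56.0 and 55.5% in control diet TAC libraries, 58.7, 56.6 and 62.6% in BCAA-free sham libraries and 58.0, 58.1 and 53.3% in control diet sham libraries. The 3 BCAA-free TAC libraries were the highest of the 12. This split was noticed in these values and was not tested. The 2 tRNA genes with the most reads were mt-Tn on the light and mt-Tl1 on the heavy strand. They averaged 66848 and 41788 normalized reads in BCAA-free TAC and 33129 and 42830 in control diet TAC libraries. In BCAA-free sham libraries they averaged 54605 and 56826, and in control diet sham libraries 59114 and 70212. With TAC on the BCAA-free diet, 4 light-strand tRNA genes had a log2 change above 0 and 4 below. Against control diet TAC all 8 were above 0. Of mitochondrial protein-coding reads, the light-strand gene mt-Nd6 took 3.15 to 3.27% in BCAA-free TAC libraries, 3.19 to 4.50% in control diet TAC libraries, 2.94 to 3.08% in BCAA-free sham libraries and 2.89 to 3.13% in control diet sham libraries. The value of 4.50% belonged to control diet TAC 3.

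In the authors' deposited tables, members with an adjusted p below 0.05 numbered 19 lower and 0 higher with TAC on the control diet, against 8.07% and 11.7% of the genes there, and 7 lower and 1 higher with TAC on the BCAA-free diet, against 5.79% and 4.93%. For diet, the authors' deposited tables had 17 members higher and 0 lower in TAC hearts, against 8.21% and 12.7% of the genes, and 1 higher and 2 lower in sham hearts, against 3.19% and 5.34%. Nuclear partners of the same complexes were read from lists of 73 subunit genes. With TAC on the control diet 3 of 73 fell and 0 rose by limma, when 5.64% of all genes fell and 9.17% rose. On the BCAA-free diet 4 of 73 rose and 0 fell, when 3.31% of all genes rose and 4.41% fell. At an unadjusted limma p below 0.05, 12 were lower and 0 higher on the control diet. On the BCAA-free diet 24 were higher and 0 lower. The share of all genes at that p was not computed, so these counts cannot be set against it. DESeq2 called 6 lower and 0 higher on the control diet, against 8.07% and 11.7% of all genes. It called 8 higher and 0 lower on the BCAA-free diet, against 4.93% and 5.78%. In BCAA-free TAC against control diet TAC hearts 27 of 73 were higher and 0 lower (none lower at an unadjusted p below 0.05, or with edgeR or DESeq2), when 6.23% of all genes were higher and 10.5% lower. None of the 73 was called by limma for diet in sham hearts or for the difference of TAC responses. In these 2 comparisons 18 and 20 had an unadjusted limma p below 0.05 upward and 1 and 0 downward, again without a share of all genes. There edgeR called none, and DESeq2 called 3 higher in each, against 3.2% and 1.58% of all genes. The 27 subunits called higher were those of BCAA-free TAC against control diet TAC hearts. They comprised 10 of 36 in complex I, 3 of 9 in complex III, 8 of 13 in complex IV and 6 of 15 in complex V. The median log2 change by complex in that comparison was 0.45, 0.42, 0.53 and 0.44 in that order. The complex IV subunit Cox7a1, the muscle isoform, changed most by log2 value, 0.84 ± 0.16 (limma adjusted p = 0.00672), with 64263 to 74391 normalized reads in BCAA-free TAC libraries and 33008 to 49147 in control diet TAC libraries. Cox7b (0.68 ± 0.13) and Cox8b (0.75 ± 0.16) were also among the complex IV genes with the smallest p. In complex V these were Atp5k (0.74 ± 0.12), Atp5g2 (0.61 ± 0.11) and Atp5j (0.58 ± 0.14), in complex I Ndufa1 (0.60 ± 0.12), Ndufs1 (0.62 ± 0.13) and Ndufa3 (0.55 ± 0.12), and in complex III Uqcr11 (0.54 ± 0.12), Uqcrq (0.53 ± 0.14) and Uqcrc2 (0.45 ± 0.13). With TAC on the control diet the subunits that fell were Cox7a1 (-0.82 ± 0.18), Ndufs1 (-0.51 ± 0.13) and Atp5g2 (-0.39 ± 0.11). With TAC on the BCAA-free diet Ndufa11 (0.34 ± 0.06), Ndufc1 (0.20 ± 0.06), Cox6b1 (0.27 ± 0.07) and Cox8a (0.22 ± 0.05) rose.

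Nuclear genes that make, cut, modify and translate mitochondrial RNA were read from 8 lists that hold 90 different genes. With TAC on the control diet 9 of 90 fell and 0 rose by limma, when 5.64% of all genes fell and 9.17% rose, while 4 had an unadjusted p below 0.05 upward and DESeq2 called 2 higher. In TAC hearts 13 of 90 were higher on the BCAA-free than on the control diet and 0 lower, when 6.23% of all genes were higher and 10.5% lower, while 3 had an unadjusted p below 0.05 downward and DESeq2 called 1 lower. Of 9 transcription genes, Tfb2m, a factor that helps the mitochondrial RNA polymerase open promoters, was the one that fell with TAC on the control diet, by 0.39 ± 0.11 on the log2 scale (limma adjusted p = 0.0395). It had 4751 to 4979 normalized reads in BCAA-free TAC libraries and 3145 to 3915 in control diet TAC libraries, a log2 change of 0.47 ± 0.10 (limma adjusted p = 0.0153). Of 15 DNA maintenance genes, the exonuclease Mgme1 (-0.65 ± 0.10), the ribonucleotide reductase subunit Rrm2b (-0.42 ± 0.10) and the helicase Twnk (-0.41 ± 0.11) fell with TAC on the control diet. All 3 were higher in BCAA-free TAC than in control diet TAC hearts, by 0.56 ± 0.12, 0.36 ± 0.09 and 0.42 ± 0.11. On the BCAA-free diet Rrm2b (-0.30 ± 0.06) and Mgme1 (-0.33 ± 0.09) fell with TAC as well. In sham hearts Rrm2b was higher on the BCAA-free than on the control diet (0.24 ± 0.06, limma adjusted p = 0.0459), the 1 call by limma among the 90 genes there, when 1.27% of all genes were higher. None of the 4 RNA cleavage genes was called in any comparison by limma or edgeR. In BCAA-free TAC against control diet TAC hearts 1 had an unadjusted limma p below 0.05 upward, and DESeq2 called 1 higher. Of 19 RNA stability and decay genes, Fastkd1 (-0.38 ± 0.10) fell with TAC on the control diet and Fastkd5 (0.46 ± 0.13) rose with it on the BCAA-free diet. Slirp, which stabilizes mitochondrial mRNAs, was higher in BCAA-free TAC than in control diet TAC hearts, by 0.51 ± 0.13, and so was Ptcd1, by 0.35 ± 0.10. Of 17 tRNA modification genes, Osgepl1 (-0.45 ± 0.11) and Mto1 (-0.37 ± 0.09) fell with TAC on the control diet. Both were higher in BCAA-free TAC than in control diet TAC hearts (0.50 ± 0.11 and 0.40 ± 0.10), as was the methyltransferase Trmt5 (0.44 ± 0.12). None of the 10 rRNA modification genes was called in any comparison by limma or edgeR. In BCAA-free TAC against control diet TAC hearts 3 had an unadjusted limma p below 0.05 upward, and DESeq2 called 1 higher there and 1 higher in BCAA-free TAC against BCAA-free sham hearts. Of 14 translation factors, the elongation factor Gfm1 fell with TAC on the control diet (-0.38 ± 0.11). It was higher in BCAA-free TAC than in control diet TAC hearts (0.43 ± 0.11), as was Gfm2 (0.36 ± 0.10), which acts in ribosome recycling. Over the nuclear genes named here, the subunits and synthetases included, 4 of 45 calls held under every alternative tried.

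Of the 3 mitochondrial synthetases for leucine, isoleucine and valine, Iars2, which charges mt-Ti, fell with TAC on the control diet by 0.31 ± 0.09 (limma adjusted p = 0.0488) and was higher in BCAA-free TAC than in control diet TAC hearts by 0.35 ± 0.09 (limma adjusted p = 0.0305). Lars2, which charges mt-Tl1 and mt-Tl2, was higher in BCAA-free TAC than in control diet TAC hearts by 1.71 ± 0.45 (limma adjusted p = 0.0328). It had 281389, 122238 and 377678 normalized reads in BCAA-free TAC libraries, 45641, 65934 and 124229 in control diet TAC libraries, 91210.4, 78923 and 80740.8 in BCAA-free sham libraries and 59647, 408121 and 49069 in control diet sham libraries. The 4 libraries high in structured RNA were, with BCAA-free TAC 2, the 5 highest for Lars2. The part of those RNAs in the Lars2 value was not tested.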

How the data were processed

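Poly(A)-selected mouse heart RNA was measured in 12 libraries, 3 in each of 4 groups. Groups and replicate numbers are those of the labels. Tools in the submitters' processing notes are Trimmomatic 0.36, STAR 2.5.2b, DESeq2 and Subread 1.5.2. The notes list mm10 and GRCm38 as builds. None of the tools' roles, the annotation, strand use or the handling of reads that match several places is given in the sources used here. The authors deposited 4 tables of 6 libraries, which compare TAC with sham within each diet and the diets within each surgery. Per the file headers, columns hold normalized read counts (a signal: reads divided by a size factor of the table) and the authors' log2 fold change, p-value and adjusted p-value. Whole reads were recovered from the deposited values: 100% of 431838 were within 0.0001 read of a whole number. No gene listed had fewer than 61 reads summed over a table.

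A count test had been planned in case of raw counts. With normalized values deposited, the test used was limma-trend with robust empirical Bayes (limma 3.58.1, R 4.3.3) on log2(value + 1), for genes with a mean of at least 10. It was fitted per pair of groups in the table that holds both, with Benjamini-Hochberg adjustment over all genes tested. All 33 mitochondrial genes passed this filter in every comparison. The difference of TAC responses was a contrast over 12 libraries. Fold changes understate changes of low genes. Normalized reads printed per library rest on 1 set of DESeq2 size factors for all 12 libraries, so their ratios can differ from the fold changes. Shares use recovered reads, with their sum over the genes measured as the total, and exact two-sided permutation tests. Alternatives were other pseudocounts, filters, scalings, edgeR 4.0.16, DESeq2 1.42.0, a replicate block and leaving out each library.

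Per-library values are given for mt-Nd6, the highest and lowest protein-coding gene per kilobase, the tRNA genes for leucine, isoleucine and valine, the highest tRNA gene, and the up to 5 called members with the smallest p per comparison. From each nuclear list up to 3 called genes with the smallest p are named. Other values were chosen after they were seen. The members and lists were chosen with earlier results of these data known. Positions, sequences and pseudogene copies come from the GENCODE M21 transcripts (GRCm38), compared with BLAST+ 2.17.0. Anticodons were placed by the stem around them.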

Additional observations from a re-analysis of the deposited data

Results flagged for a closer look

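For 3 genes the effect of TAC was not the same on both diets by a test of the difference itself, as log2 change with TAC on the BCAA-free diet minus that on the control diet (limma over 12 libraries). For mt-Tf the difference was 1.74, with log2 changes of 0.06 on the BCAA-free and -1.68 on the control diet. For mt-Tv it was 1.17, with log2 changes of -0.42 and -1.59 in the same order of diets. For mt-Atp8, which lies in the stretch copied on chromosome 1, it was 1.13, with log2 changes of -0.12 and -1.25. In both tRNA genes and in mt-Atp8 every control diet TAC library was below every other library. Of the 3 calls, only that of mt-Tf held whichever of the 12 libraries was left out. The mt-Atp8 call was also lost with the replicate number as a block (limma adjusted p = 0.0883).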

How the results depend on the processing

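Over all 34 calls of mitochondrial genes, 495 values under alternatives kept direction and call, 132 lost the call and 0 reversed, and 11 calls held under every alternative. Over the 45 calls of nuclear genes named, 571 kept it, 239 lost it and 0 reversed. Without single libraries, members called numbered 5 to 19 for TAC on the control diet, 2 to 5 for TAC on the BCAA-free diet, 0 to 3 for diet in sham hearts, 6 to 18 for diet in TAC hearts and 1 to 14 for the difference of TAC responses. These counts pool both directions. With DESeq2 they were 19, 8, 3, 17 and 12, and edgeR called 4 for TAC on the BCAA-free diet. With all 12 libraries in 1 fit they were 20 for TAC on the control diet, 0 for TAC on the BCAA-free diet and 0 for diet in sham hearts. Scaling to reads outside the mitochondrial genome gave 6 for TAC on the BCAA-free diet and 7 for diet in TAC hearts, and moved the median log2 change of all genes to -0.15 for diet in TAC hearts and -0.10 for the difference. Without the libraries high in structured RNA, an alternative chosen after seeing the data, the count was 3 for diet in sham hearts, 2 lower and 1 higher. BCAA-free TAC 2 was then the only library of its group, so for comparisons with that group only the median log2 change over the members is given. It was -0.18 for TAC on the BCAA-free diet and 0.54 for diet in TAC hearts. Leaving out members inside the copied stretch, also chosen after seeing the data, kept 9, 2, 1, 13 and 2 calls.

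Same-numbered libraries correlated at -0.17 to 0.03 after removal of group means, and in 1 of 12 checks a library correlated best with its own number. Whether same-numbered libraries shared a batch cannot be told from these values. With the replicate number as a block, 13 members were lower with TAC on the control diet. With TAC on the BCAA-free diet 5 were lower and 1 higher. For diet, 1 was lower in sham hearts and 12 were higher in TAC hearts, and 2 passed above 0 for the difference. The share of all genes was not computed for these counts.

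The share of protein-coding reads, leaving out single libraries, moved between -2.09 and 0.219 points for BCAA-free against control diet in sham hearts and between 0.679 and 1.84 for diet within surgery. That of tRNA reads in RPM moved between -165 and 27.1 for TAC on the BCAA-free diet, -345 and 25.4 for diet in sham hearts, -449 and -264 for TAC within diet (unadjusted exact permutation p from 0.03 to 0.12) and -3.25 and 193 for diet within surgery. Relative to reads outside the mitochondrial genome, TAC within diet gave -580.2 RPM (exact permutation p = 0.03, against 0.05). The tRNA to mRNA ratio moved between -1.16 and 0.302 for TAC on the control diet, -0.298 and 0.479 for TAC on the BCAA-free diet, -0.589 and 0.0288 for diet in sham hearts, -0.601 and 0.856 for diet in TAC hearts, -0.593 and 0.135 for TAC within diet and -0.435 and 0.294 for diet within surgery. Where values changed, the cause was not tested. The rRNA measures planned were not run, since the rRNA genes were not analysed here. With 3 libraries per group, small changes may be missed, and low tRNA genes such as mt-Ts1 rest on few reads.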
